A study of Mus musculus with 32 samples.

Results

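The subject is a group of 10 genes that encode digestive enzymes of the pancreas, followed in the spleen and in 3 other organs of the mouse. The members are Clps, Pnlip, Try5, Ctrb1, Ctrl, Cela1, Cela2a, Cela3b, Cpa1 and Cpb1, and all 10 were found by symbol among the 25058 genes that the files of every assay hold. On mm10 Cela2a and Cela3b lie on chromosome 4, Try5 and Cpa1 on chromosome 6, Ctrb1 and Ctrl on chromosome 8, and Cpb1, Cela1, Clps and Pnlip on chromosomes 3, 15, 17 and 19. They were chosen by their RNA-seq level, which is higher in spleen after cisplatin than in control spleen, so the spleen RNA-seq values below describe the choice and carry no test. XR-seq and Damage-seq in every organ, and RNA-seq in kidney, liver and lung, did not enter the choice and were tested.

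Acinar cells of the pancreas make these enzymes, mostly as inactive precursors, pack them into granules and release them into the gut, where they break down fat and protein. The tail of the pancreas lies against the spleen in the mouse, and the genes are known as markers of acinar cells rather than of any cell of the spleen. Nucleotide excision repair removes platinum adducts by cutting out a short piece of the damaged strand, and its transcription-coupled branch acts on the strand that RNA polymerase II reads. An expressed gene is therefore known for more excised fragments from its transcribed strand (TS) than from its non-transcribed strand (NTS).

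All animals were wild-type C57BL/6J female mice aged 6 to 7 months. Treated mice received cisplatin, a platinum drug that crosslinks neighbouring guanines, as 1 intraperitoneal dose of 10 mg per kg, and control mice received saline. The sample labels give 2 h after treatment, whereas the description of the treatment spans 4 h. RNA-seq had 2 control and 2 cisplatin libraries for each of kidney, liver, lung and spleen, whereas XR-seq, which reads the excised fragments, and Damage-seq, which reads adducts still in the DNA, had 2 cisplatin libraries per organ and no control libraries. Which mouse gave which library was not stated in the labels.

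The submitters exchanged the labels "control" and "cisplatin" of the lung and spleen RNA-seq libraries in a later correction, and the present labels were used. Under the earlier ones every RNA-seq difference between cisplatin and control in spleen and lung would point the other way. The XR-seq and Damage-seq comparisons of organs do not use these labels. The 2 spleen control libraries differed by little more than read sampling, with a dispersion index (chi-square over its degrees of freedom) of 2.98, and so did the 2 lung control libraries, with an index of 2.75. Each of these pairs was therefore summed and counted as 1 sample. The 2 cisplatin spleen libraries had an index of 133.9. An RNA-seq library held 15619474 to 162270280 reads on genes, an XR-seq library 10658675 to 59779770 and a Damage-seq library 1571167 to 6441367, with the shallowest library of XR-seq and of Damage-seq in spleen. The 13 lymphoid markers of spleen, among them Ighm and Cd79a, summed to between 23120 and 39823 counts per 1000000 reads on genes (CPM) in the 4 spleen RNA-seq libraries and to at most 3188 CPM in any other organ.

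The sequence upstream of 4 members is shown because these genes were high together in the libraries that chose them and the results below turn on them. Each line gives the 250 bases before the RefSeq start on GRCm38.p6, 5′ to 3′ on the strand of the gene, with matches to CANNTG or to TTTCCC on either strand in capitals. Ctrb1 (chr8:111691011-111691260, minus strand) had the highest RNA level, Pnlip (chr19:58670115-58670364, plus strand) held no match, Cela1 (chr15:100687921-100688170, minus strand) held the most, and Ctrl (chr8:105933863-105934112, minus strand) was the member with a called difference in XR-seq. The RefSeq start of Pnlip lies inside the span that GENCODE gives the gene.
Ctrb1: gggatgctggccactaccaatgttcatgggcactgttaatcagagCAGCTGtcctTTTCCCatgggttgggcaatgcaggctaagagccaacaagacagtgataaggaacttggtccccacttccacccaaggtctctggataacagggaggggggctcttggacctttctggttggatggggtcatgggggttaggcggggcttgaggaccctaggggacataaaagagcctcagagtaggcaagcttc
Pnlip: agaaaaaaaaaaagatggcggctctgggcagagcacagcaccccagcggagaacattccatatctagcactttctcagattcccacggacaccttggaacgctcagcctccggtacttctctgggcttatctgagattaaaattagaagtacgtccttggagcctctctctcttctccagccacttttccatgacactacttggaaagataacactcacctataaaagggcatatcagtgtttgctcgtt
Cela1: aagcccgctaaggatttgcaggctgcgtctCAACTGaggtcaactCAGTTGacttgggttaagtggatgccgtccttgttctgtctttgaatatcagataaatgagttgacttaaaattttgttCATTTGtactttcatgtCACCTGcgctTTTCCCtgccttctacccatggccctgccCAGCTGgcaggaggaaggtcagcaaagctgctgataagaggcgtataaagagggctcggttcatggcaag
Ctrl: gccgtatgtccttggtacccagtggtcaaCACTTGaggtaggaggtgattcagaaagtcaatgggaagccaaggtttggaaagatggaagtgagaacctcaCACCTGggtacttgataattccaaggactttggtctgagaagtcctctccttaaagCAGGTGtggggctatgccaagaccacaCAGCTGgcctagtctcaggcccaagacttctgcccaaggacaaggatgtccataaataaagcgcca

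RefSeq promoters were matched for 8 of the 10 members, Clps and Try5 being the other two. CANNTG, the letters of the E-box to which basic helix-loop-helix factors such as Ptf1a bind, was present in 7 of the 8 and in 66.2% of all 32851 promoter windows of the same length. CACCTG, which is one form of CANNTG and overlaps it, was present in 5 of the 8 and in 17.2% of all windows. TTTCCC, a stretch of the site to which Rbpjl binds, was present in 4 of the 8 and in 21.9% of all windows. These matches are a description of the letters and were not tested.

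In RNA-seq, each of the 10 genes was higher in both cisplatin spleen libraries than in any of the other 14 libraries. Within spleen, both cisplatin libraries were above both control libraries for 28.7% of all genes with 20 or more reads, and nothing is read from the members' count, which the choice fixed. Summed over the members, they took 0.241% and 0.187% of the reads of the cisplatin spleen libraries 1 and 2, against 0.00171% and 0.00159% of the control spleen libraries. The sum was 2412 and 1873 CPM in cisplatin spleen and 17.1 and 15.9 CPM in control spleen, and most of the control sum was Cela1. Without Cela1 the control sum was 1.39 and 1.52 CPM.

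The lipid-digesting members are Pnlip, the triglyceride lipase of pancreatic juice, and Clps, colipase, the small protein that holds the lipase on fat droplets. Pnlip was at 393 and 233 CPM in cisplatin spleen, with 0 and 6 reads (0 and 0.0707 CPM) in control spleen. Clps was at 127 and 101.9 CPM with 0 reads in both control libraries. With the control set to a floor of 3 reads over the pair, its mean was 4714-fold higher, and libraries 1 and 2 gave 5231-fold and 4197-fold.

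The serine proteases of the trypsin and chymotrypsin families include Try5, a trypsinogen, Ctrb1, the precursor of chymotrypsin B, and Ctrl, a chymotrypsin-like protease. Ctrb1 had the highest level of the members at 462 and 379 CPM, against 0.103 and 0.0707 CPM in control spleen. Per length of transcript it was also first, with 479 ± 66.8 RPKM (CPM per kilobase of exon, SD, n = 2), and Clps came next with 187 RPKM. Try5 was at 88.2 and 119.9 CPM with 0 reads in both control libraries. At the same floor its mean was 4285-fold higher, and libraries 1 and 2 gave 3632-fold and 4939-fold. Try5 is 1 of several near-identical trypsinogen genes, so its reads may be shared with copies such as Try4. Ctrl was at 123 and 78.8 CPM, 87.2-fold above the 1.08 and 1.19 CPM of control spleen. Ctrl was therefore the member, after Cela1, with the highest level in control spleen.

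The elastase-type proteases are Cela1, Cela2a and Cela3b. Cela1 was at 378 and 319 CPM in cisplatin spleen and at 15.7 and 14.4 CPM in control spleen, a 23.5-fold difference and the smallest of the 10. Cela2a was at 226 and 151 CPM, against 4 reads and 1 read in the control libraries. Cela3b was at 136 and 119.7 CPM against 2 reads in the control pair, a ratio of 7884 with an exact 95% Poisson interval of 2182 to 65098 that covers counting error of the control only. The interval treats reads as independent, although RNA-seq was paired-end and the 2 reads of a pair may both be counted.

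The carboxypeptidases trim amino acids from the end of a peptide, Cpa1 preferring aromatic and branched residues and Cpb1 basic ones. Cpa1 was at 257 and 189.6 CPM in cisplatin spleen, with 0 and 4 reads in control spleen. Cpb1 was at 222 and 180.4 CPM, with 2 and 11 control reads.

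**Figure D1:**
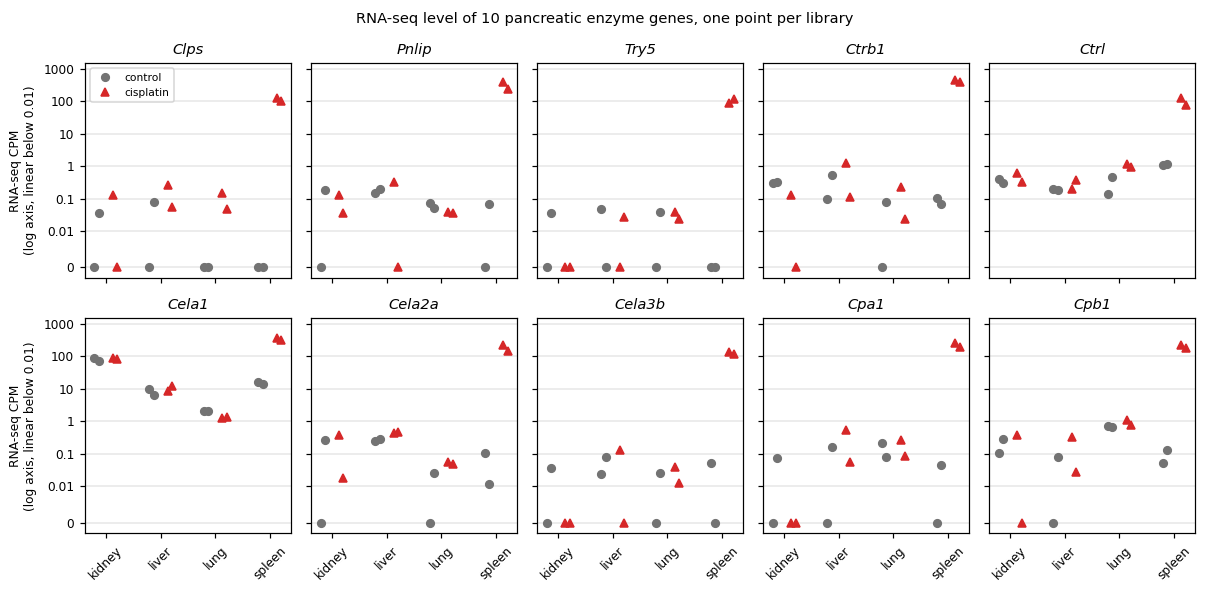
RNA-seq level of each of the 10 genes in CPM (vertical axis, logarithmic above 0.01 and linear below it) in kidney, liver, lung and spleen, with 1 point per library, grey circles for control and red triangles for cisplatin. In every panel the 2 cisplatin spleen libraries stand above all others, and only Cela1 is above 2 CPM outside them.

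As log2 of CPM plus 0.1, cisplatin over control, the members ranged from 4.55 (Cela1) to 11.18 (Ctrb1) with a median of 10.13, beside a median of -0.01 over the 17688 genes with 20 or more reads in the spleen libraries. With raw ratios, and the controls of Clps and Try5 set to the floor of 3 reads, the median was 12.19. All 10 had a log2 ratio of 1 or more and 0 had one of -1 or less, where 4.12% and 2.52% of all genes did. Those counts describe how the genes were picked and nothing is read from them. Between the 2 cisplatin libraries, 9 of the 10 were higher in library 1, and the ratio of library 1 to library 2 ran from 0.735 (Try5) to 1.68 (Pnlip). In a bulk sample, more cells of a type and more RNA per cell cannot be told apart, here as in every comparison below.

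The other genes of the acinar programme were described from a wider list. Of 27 measured acinar secretory genes that are not members, 22 had 20 or more reads in spleen and all 22 had a log2 ratio of 1 or more. The median was 6.10 (8.05 as raw ratios with 9 genes at 0 in control set to the floor). Prss2, another trypsinogen, was at 233 and 186 CPM in the cisplatin libraries and 0.310 and 0.247 CPM in control. Cel, the bile-salt-stimulated lipase, was at 168 and 109.6 CPM, Pnliprp1, a relative of the pancreatic lipase, at 128 and 98.2 CPM, and Try4 at 96.3 and 88.1 CPM, each under 0.1 CPM in both control libraries. Reg3a had 0 reads in all 4 spleen libraries. Ctrc, Cuzd1 and Pdia2 were not analysed here.

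Genes that control or equip the acinar cell, rather than being secreted by it, gave mixed values. Of 9 such genes, 7 had 20 or more reads and 3 had a log2 ratio of 1 or more, Cckar, Aqp8 and Aqp12, with a median of 0.59. The ratio of Aqp8 rests on cisplatin library 1, since library 2 was below both controls. The 9 genes summed to between 20.6 and 30.7 CPM in the spleen libraries and between 415 and 798 CPM in liver, so they do not mark acinar cells alone. Bhlha15 (Mist1), which drives the secretory machinery, was at 18.1 and 9.92 CPM in cisplatin spleen and 18.7 and 20.04 CPM in control. Gata6 was at 6.71 and 8.10 CPM against 6.92 and 7.42 CPM, so the Gata6 values of the groups overlapped. Cckar, the receptor for cholecystokinin on acinar cells, was at 1.25 and 0.516 CPM against 0.103 and 0.0707 CPM, and Aqp8, a water channel, at 2.45 and 0.0229 CPM against 0.103 and 0.0825 CPM. Aqp12 had 34 and 55 reads (0.924 and 0.631 CPM) in the cisplatin libraries and 0 in the controls, a log2 ratio of 3.13. Ptf1a, the factor that specifies acinar cells, had 3 and 4 reads in the cisplatin libraries and 0 in the controls.

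Markers of the other cell types that a spleen sample could hold were read in the same libraries. Of 18 islet genes, 6 had 20 or more reads and 2 had a log2 ratio of 1 or more, Ttr and Mafa. Sst and Ppy, hormones of islet cells, had 0 reads in all 4 libraries, and the insulin gene Ins2 had 0 and 6 reads in the cisplatin libraries. Ttr was at 28.6 CPM in cisplatin library 1 and 0 in library 2, against 2.32 and 0.860 CPM in control, so its ratio rests on library 1. The islet list, which holds Ttr, summed to 31.9 and 6.12 CPM in cisplatin spleen and 7.08 and 4.76 CPM in control spleen. In liver it summed to between 3569 and 9897 CPM, so the list does not mark islet cells alone. Of 13 duct genes, 12 had enough reads and 3 had a log2 ratio of 1 or more, and their sum was 52.1 and 27.9 CPM in cisplatin spleen against 27.9 and 26.2 CPM in control. Of 7 mesothelial genes 2 had a log2 ratio of 1 or more, with sums of 73.3 and 50.5 CPM against 49.5 and 53.7 CPM.

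Fat cell markers moved with 1 cisplatin library. Of 10 such genes, 8 had a log2 ratio of 1 or more and 1 had one of -1 or less, with sums of 398 CPM in cisplatin library 1, 166 CPM in library 2 and 167 and 172 CPM in control. Adipoq, which encodes adiponectin, was at 26.7 CPM in library 1 and 1.503 CPM in library 2, with 2.94 and 2.52 CPM in control. With cisplatin library 2 alone, 10 members had a log2 ratio of 1 or more, a count that the choice of the members fixes. Of 12 stomach and intestine genes, 7 had 20 or more reads, 3 had a log2 ratio of 1 or more and 1, Lgr5, had one of -1 or less. Tff2, a peptide of mucous cells, was at 10.2 and 8.72 CPM against 0 reads in control, whereas Gkn1, Gkn2 and Tff1 had 0 reads in both cisplatin libraries. The part of these cell types in the values of the members was not tested.

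The genes of the spleen itself differed less. None of 13 lymphoid genes had a log2 ratio of 1 or more, or of -1 or less (median 0.05). Ighm, with the highest level, was lower, at 25199 and 18518 CPM after cisplatin and 35075 and 35063 CPM in control. Cd79a of B cells was higher, at 781 and 766 CPM after cisplatin and 589 and 574 CPM in control. The sum of the list, most of it Ighm, was 29595 and 23120 CPM after cisplatin and 39804 and 39823 CPM in control. Of 10 genes of the stroma and red pulp macrophages, 9 had 20 or more reads and 1 had a log2 ratio of 1 or more (median -0.04). Vcam1 was at 837 and 981 CPM after cisplatin and 925 and 942 CPM in control.

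**Figure D2:**
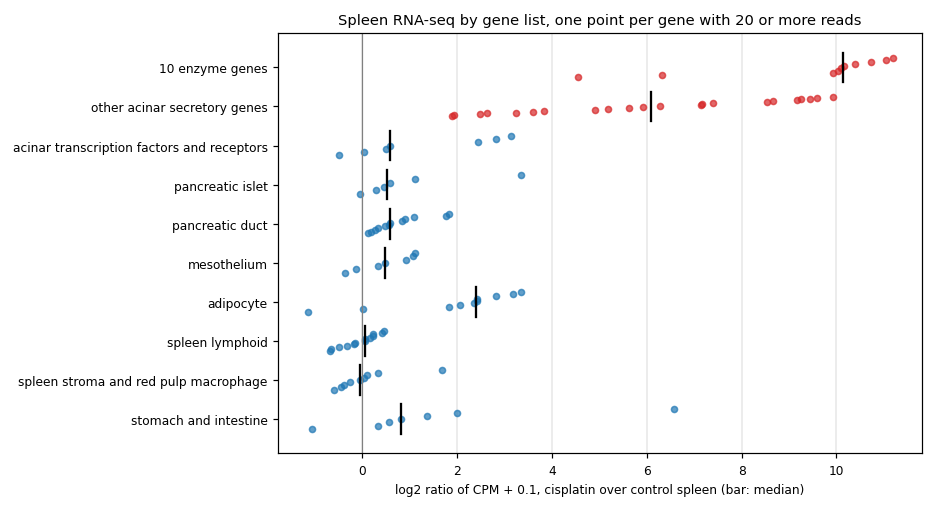
Log2 ratio of CPM plus 0.1 in cisplatin over control spleen (horizontal axis) for each gene with 20 or more reads, by gene list, with the median of a list as a vertical bar. The enzyme genes (median 10.13) and the other acinar secretory genes (median 6.10) lie to the right of the lymphoid genes (median 0.05).

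Outside the spleen, Cela1 was the only member with a level above 2 CPM. It was at 88.9 and 71.4 CPM in control kidney and 89.4 and 81.8 CPM in cisplatin kidney, at 9.82 and 6.62 CPM in control liver and 8.49 and 12.2 CPM in cisplatin liver, and at 2.02 and 2.08 CPM in control lung and 1.26 and 1.33 CPM in cisplatin lung. In control animals its order was thus kidney, spleen, liver and lung, and no organ overlapped with its neighbour in that order. The kidney and the liver values of treated and control animals overlapped. In lung both cisplatin libraries were below both control libraries, as for 32.9% of all genes with 20 or more reads in lung.

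Each other member had at most 38 reads in any library of kidney and liver. In lung, Ctrl had 61 and 153 reads (1.18 and 0.943 CPM) after cisplatin and 4 and 35 reads (0.145 and 0.454 CPM) in control. Cpb1 had 56 and 127 reads (1.09 and 0.783 CPM) after cisplatin and 20 and 51 (0.723 and 0.662 CPM) in control lung. The remaining members had at most 14 reads in any lung library. Among them, Clps had 8 reads in each cisplatin lung library (0.155 and 0.0493 CPM) and 0 in both control lung libraries.

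Whether cisplatin changed the members in the organs that did not enter their choice was tested with edgeR's quasi-likelihood method, asking for a log2 fold change beyond 0.4, with Benjamini-Hochberg adjustment over all genes tested. In each organ 8 of the 10 members passed the filter on low counts, Try5 and Cela3b being the other two, and 0 of the 8 were called. Of all genes 2.48% were called in kidney, 2.29% in liver and 0.311% in lung. None of the 8 had an unadjusted p under 0.05 in any of the 3 organs, and DESeq2 called 0 members in each. For Cela1, the member with the most reads there, edgeR gave a log2 difference of 0.16 (SE 0.302, adjusted p = 0.967) in kidney, 0.41 (SE 0.309, adjusted p = 0.764) in liver and -0.68 (SE 0.381, adjusted p = 1) in lung. For Ctrl in lung the edgeR difference was 1.49 (SE 0.782, adjusted p = 0.925), so its separation by library was not past the test. For Cpb1 in lung the edgeR difference was 0.44 (SE 1.39, adjusted p = 1). With at most 38 reads in any library of kidney and liver and at most 14 in lung, changes of the other members tested were not detectable at this depth. Clps, 1 of these, had an edgeR difference of 5.12 in lung, from 8 reads in each cisplatin library and 0 in control. Lung control counted as 1 sample, which was assumed to vary like the other groups.

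In XR-seq, by contrast, most of these genes gave few or no repair reads on the transcribed strand in spleen. On the TS, Pnlip had 0 and 17 reads in the spleen libraries 1 and 2, Clps 0 and 20, Cela3b 0 and 1, and Try5 0 in both. A count of 0 allows up to 3 reads, which is 0.281 CPM in spleen library 1 and 0.0866 CPM in library 2. Cpa1 had 15 and 9 reads, Cpb1 4 and 6, and Ctrb1 17 and 13. The member with the highest spleen RNA level thus gave at most 17 repair reads per library on the strand that is read.

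Scaled to CPM per 1000 GG dinucleotides, the sites where cisplatin reacts, Ctrb1 was at 3.76 and 0.885 on the TS in spleen. It was at 4.61 and 4.56 in kidney, 1.03 and 0.840 in liver and 1.14 and 1.55 in lung, so the spleen values lie within the range of the other organs. Pnlip was at 0 and 0.326 in spleen and at most 0.114 elsewhere, and Clps at 0 and 2.66 in spleen and at most 1.31 elsewhere. For these 2 genes spleen library 2 was the highest of the 8 and spleen library 1 was among those at 0.

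Cela1 and Ctrl had more repair reads than the other members. Cela1 had 60 and 282 TS reads in spleen, at 6.22 and 8.99 CPM per 1000 GG, between lung (2.66 and 1.69) and kidney (13.8 and 9.70), with liver the highest at 14.2 and 23.6. That order over organs, in which spleen lies below liver and kidney, is not the order of its RNA level in cisplatin animals, in which spleen was highest. Ctrl had 43 and 156 TS reads in spleen, at 25.7 and 28.7 CPM per 1000 GG, and between 26.3 and 30.2 in liver and lung, with 0 and 15.5 in kidney. Its spleen and lung values overlapped. For comparison, the median of all 24616 genes with 10 or more GG on each strand was between 4.79 and 6.60 on the TS over the 8 libraries, and between 0.640 and 1.44 on the NTS.

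**Figure D3:**
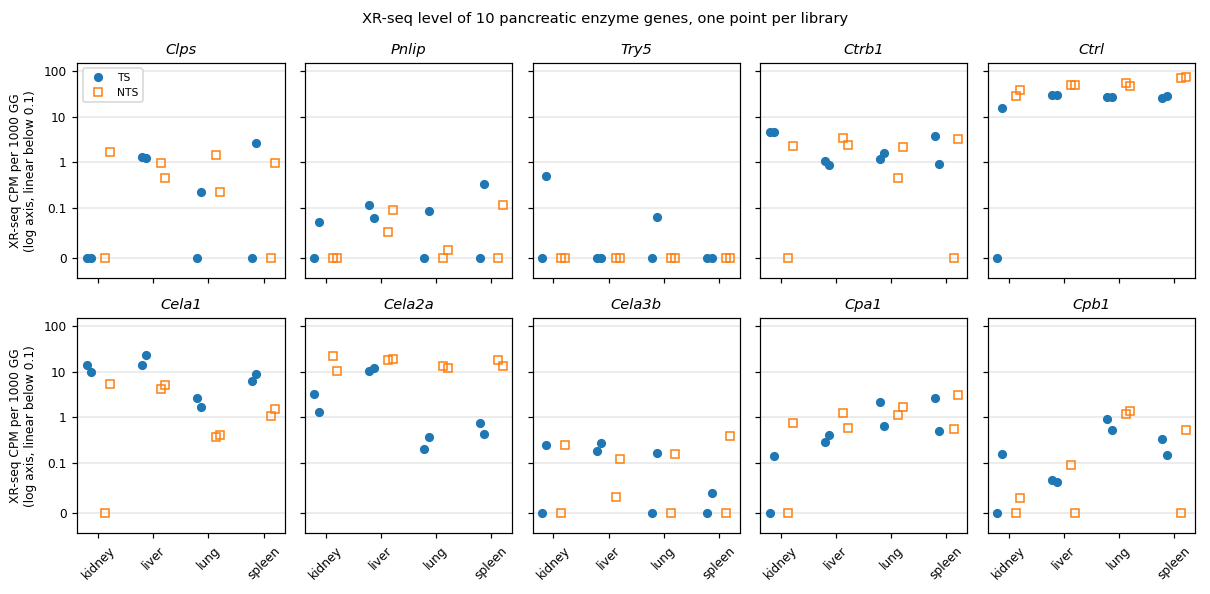
XR-seq CPM per 1000 GG (vertical axis, logarithmic above 0.1 and linear below it) of each of the 10 genes by organ, with 1 point per library, filled circles for the TS and open squares for the NTS. The spleen TS points lie within the range of the other organs in all panels but Clps, Pnlip and Cpa1, where 1 spleen library is highest, and the spleen NTS points of Ctrl are the highest of its 8.

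The difference between spleen and the mean of kidney, liver and lung was tested with edgeR over all genes of the XR-seq TS table. Of the 10 members 7 passed the filter on low counts, Try5, Cela3b and Pnlip being the others, and 0 of the 7 were called higher in spleen, where 14.1% of the 19731 genes tested were. Likewise 0 were called lower, where 13.9% of all genes were, and DESeq2 called 0 higher and 1 lower. The log2 differences ran from -1.85 to 3.36 with a median of 0.50, beside a median of 0.02 over all genes. Cela1, with the most even counts, had an edgeR difference of -0.07 (SE 0.329, adjusted p = 0.914). Clps had the largest at 3.36 (SE 1.80, adjusted p = 0.212 by edgeR), which rests on 20 reads of spleen library 2, and Ctrb1 had 0.29 (SE 0.975). With standard errors up to 1.80, several-fold differences in single members were not detectable at this depth.

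Cela2a was the only one of the 7 with an unadjusted p under 0.05, and it was lower in spleen. It had 6 and 11 TS reads there, against 404 and 389 in liver, 46 and 27 in kidney and 9 and 12 in lung. The edgeR difference was -1.85 (SE 0.680, adjusted p = 0.0634), and DESeq2 gave -1.87 with an adjusted p of 0.02. Scaled to CPM per 1000 GG, liver was highest (10.1 and 12.2), then kidney (3.29 and 1.27), spleen (0.742 and 0.418) and lung (0.198 and 0.371).

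The same test called 11 of the 13 lymphoid genes higher in spleen on the TS, with a median log2 difference of 3.97. Cd79b was higher by 3.74 (SE 0.561, edgeR adjusted p = 0.000233) and Ighm by 5.30 (SE 0.675, edgeR adjusted p = 6.0e-05). Of the 27 other acinar secretory genes 11 passed the filter and 1 was called higher, Zg16, a protein of the zymogen granule membrane, with an edgeR difference of 2.76 (SE 0.875, adjusted p = 0.0326). Zg16, named after its values were seen, had 35 and 154 TS reads in spleen and at most 51 in any other library. Of the 4 acinar genes named for their RNA level, Try4 had 0 TS reads in spleen and Prss2, Cel and Pnliprp1 were at 0.611, 0.328 and 0.290 CPM per 1000 GG. Whether the lymphoid genes and the enzyme genes differ as lists was not tested.

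Ranked within the spleen, the 10 genes stood high in RNA and low or middling in repair. By RPKM in cisplatin spleen, each member was above at least 96.8% of the 24616 genes, with a median of 98.5%. In control spleen the same genes were above 0 to 72.4% of genes, with a median of 24.7%. By TS repair per GG in cisplatin spleen they were above 0 to 69.9% of genes, with a median of 34.0%. The 13 lymphoid genes had medians of 98.3% for RNA in cisplatin spleen, 98.7% for RNA in control spleen and 53.3% for TS repair. Ctrb1 was above 99.7% of genes for RNA and 41.9% for TS repair, while Cd79a, with 99.7% for RNA, was at 53.2% for repair. These ranks use the libraries that chose the members and are given as a description, with no test.

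**Figure D4:**
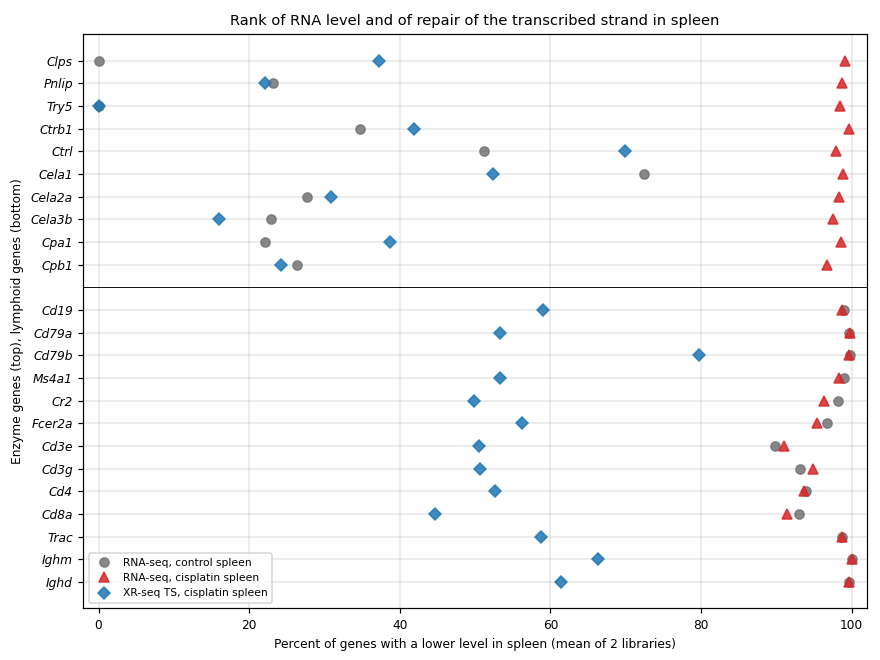
Percent of genes with a lower level in spleen (horizontal axis) for the 10 enzyme genes (top) and 13 lymphoid genes (bottom), as RNA-seq RPKM in control (grey circles) and cisplatin (red triangles) spleen and as XR-seq TS reads per GG in cisplatin spleen (blue diamonds), each a mean of 2 libraries. The enzyme genes lie at 96.8% or above for RNA after cisplatin and at 69.9% or below for repair, and the lymphoid genes lie at 44.7% or above for all 3.

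On the NTS, 7 members passed the filter and 1 was called higher in spleen, where 6.77% of the 19408 genes tested were. This was Ctrl, with 126 and 436 NTS reads in spleen, at 69.1 and 73.6 CPM per 1000 GG. The other organs lay between 28.0 and 54.9, so neither spleen value overlapped with them. The edgeR difference was 0.94 (SE 0.213, adjusted p = 0.0183). The call was lost without any 1 of 5 libraries, with adjusted p-values of 0.0568, 0.0571, 0.0595, 0.0793 and 0.115 without liver 1, liver 2, lung 2, spleen 1 and spleen 2.

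A neighbouring gene shares the strand in question. Ctrl and Pskh1, which encodes a protein kinase, end 225 bp apart on opposite strands of chromosome 8, so that the NTS of Ctrl is the strand on which the TS of Pskh1 lies. Pskh1 had 115.8 and 98.2 CPM of TS repair in spleen, 86.9 and 116.7 CPM in kidney, 113.7 and 107.7 CPM in lung and 54.2 and 54.1 CPM in liver, so its spleen values lay among those of kidney and lung. In both spleen libraries fewer Ctrl reads came from its TS than from its NTS: the TS share was 25.4% (exact 95% binomial interval 19.1 to 32.7) and 26.4% (22.8 to 30.1). In the other 6 libraries the TS share was between 0 and 36.5%. The part of Pskh1 in the Ctrl values was not tested, and intervals cover counting error only.

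Cela2a also shares sequence with another gene. Its last 1015 bp, 9.1% of its length, overlap Casp9 on the opposite strand, and it lies within the GENCODE span of Ctrc on the same strand. In spleen 3.43% (interval 1.27 to 7.31) and 2.66% (1.33 to 4.70) of its repair reads came from the TS, in lung 1.26% and 2.56%, in kidney 11.6% and 9.64% and in liver 33.1% and 35.2%. The NTS level was alike across organs, between 10.3 and 21.8 CPM per 1000 GG in all 8 libraries. Without strand in the RNA-seq counts, reads of overlapping genes cannot be told apart there either.

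The ratio of TS to NTS within a library does not depend on its depth, the GG content of a gene cancels when organs are compared, and the ratio was tested as an interaction of strand and organ with edgeR. Of the 7 members that passed the filter 0 were called with a larger ratio in spleen, where 4.48% of the 20759 genes tested were. DESeq2 also called 0 larger and called 1 smaller, Cela2a (-1.77, DESeq2 adjusted p = 0.0287). By edgeR 1 of the 7 had an unadjusted p under 0.05, Cela2a, whose ratio was smaller in spleen by a log2 difference of -1.75 (SE 0.590, edgeR adjusted p = 0.137). Cela1 had a TS share of 83.3% and 83.7% in spleen and between 60.8% and 100% elsewhere, with an edgeR difference of -0.14 (SE 1.51). Of the lymphoid genes 2 of 13 were called, Cr2 and Fcer2a.

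Damage-seq asked whether the members carried fewer adducts in spleen. The members had between 2 and 21 TS reads and between 0 and 30 NTS reads in a spleen library, and up to 92 and 120 in the others. In spleen the TS level of single members ranged from 0.902 to 14.9 CPM per 1000 GG with a median of 6.48. In the other organs it ranged from 0 to 19.99 with a median of 8.81, so the ranges overlap. The median of all genes was at 6.58 and 6.99 in the spleen libraries and between 6.24 and 7.85 in those of the other organs. The median of the members was thus near that of all genes in spleen and above it elsewhere.

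With edgeR, 9 of 10 members passed the filter on the TS and 0 were called lower in spleen, where 0.557% of the 19759 genes tested were. On the NTS 9 passed and 0 were called lower, where 0.00494% of 20262 genes were, which is 1 gene. With shares this low and at most 21 TS and 30 NTS reads of a member in a spleen library, the lack of calls decides nothing. DESeq2 called 0 on either strand, and 1 member on each strand had an unadjusted p under 0.05. These were Cpb1 on the TS, with a log2 difference of -0.64 (SE 0.317, edgeR adjusted p = 0.374), and Try5 on the NTS, with -2.16 (SE 0.892, edgeR adjusted p = 0.455) from 1 read in each spleen library. The members had a median difference of -0.31 for TS reads and 0.15 for NTS reads, beside 0.02 and 0.01 over all genes. Ctrb1, with 4 and 14 TS reads in spleen, had a difference of 0.61 (SE 0.481), opposite in sign to that of most members.

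The genes whose RNA pattern over the 16 libraries was most like that of the summed members were found by Pearson's r of log2 of CPM plus 1, over 18891 genes with 50 or more reads. Sycn, syncollin of the zymogen granule, was first with r = 0.930, followed by Klk1b27 (0.847), Cel (0.845), Grcc10 (0.843), Oxa1l (0.840), Try4 (0.839), Sct (0.838) and Scarna2 (0.837). Of these 8 genes 3 are in the acinar list, Sycn, Cel and Try4. Sycn was at 85.3 and 77.03 CPM in cisplatin spleen, 0 and 0.0471 CPM in control spleen and at most 1.76 CPM in other organs. Grcc10, by contrast, was at 46.6 and 48.0 CPM in cisplatin spleen and 37.0 and 34.3 CPM in control spleen, so a high r did not require a large difference. The summed level used for r includes Cela1, which makes up most of the sum in kidney and liver, and the libraries share organs, so no p is given. The 16 libraries also include the spleen libraries that chose the members. Genes high in cisplatin spleen alone therefore tend to a high r, and nothing is read from the 3 acinar genes among the 8.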

How the data were processed

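With both DNA assays, the authors used cutadapt, BWA (mm10) and Picard for trimming, alignment and removal of duplicates, required GG at the adduct position and deposited raw counts per gene on each strand. RNA-seq reads were aligned with STAR and counted with featureCounts by the authors, and the kit does not mark strand. Reads on genes set the depth of a library and the filters left members with few reads uncompared.

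The members and gene lists were chosen with earlier results of these data known. Symbols were mapped with GENCODE M21 on GRCm38. CPM used all reads on genes, RPKM the exon length, and GG were counted per strand. Calculations used Python 3.11.15 with pandas 2.3.3, scipy 1.17.1 and numpy 2.4.6, and R 4.3.3 with edgeR 4.0.16 (TMM, filterByExpr, quasi-likelihood fit) and DESeq2 1.42.0. Counts were compared in spleen against the mean of the other organs, or in cisplatin against control, with calls at an adjusted p under 0.05 (Benjamini-Hochberg, over all genes tested). Pairs of RNA-seq libraries with a dispersion index of 3 or less were summed. Spleen log2 ratios used a pseudocount of 0.1 CPM and genes with 20 or more reads. On simulated data with 200 changed genes, a log2 fold of 2 was called in 100% of these for XR-seq TS and 82% for lung RNA-seq. False calls numbered 10 and 2 among 19450 and 17481 genes. The changed genes were drawn from genes with more reads than most members had, and a fixed spread between libraries was set. These shares therefore do not show what could be detected for the members.

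The text names the 10 members, at most 4 genes per list (those with the largest mean CPM in cisplatin spleen), members of a list that were at 0 or called, and the 8 genes most like the members. Some genes that neighbour or overlap a member are also named, and so are the listed genes that were not analysed. Aqp12, Ptf1a and Ins2 fall outside this rule and were named with their values seen. The study calls the libraries of a group biological replicates, but the labels do not tie them to animals, so p-values measure the spread between these libraries. Alternatives were another scaling, DESeq2, no filter, another pseudocount, each library left out and a replicate block. Columns of other samples numbered 0, and 16 blank lines were dropped.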

Additional observations from a re-analysis of the deposited data

Results flagged for a closer look

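Cela1 was flagged because it moved in opposite ways in lung and spleen in every library. In lung both cisplatin libraries were below both control libraries, with a log2 ratio of mean CPM of -0.67, and 32.9% of all genes with 20 or more reads in lung were ordered in this way. In spleen both cisplatin libraries were above both control libraries, with a log2 ratio of 4.53, and spleen RNA-seq chose this gene. Each control pair counts as 1 sample, and the difference between the organs was not tested.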

How the results depend on the processing

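Of 100 recomputed member counts 93 stayed within 1.5 times the reported one, which is no measure of stability. The spleen RNA-seq counts among them were fixed by the choice of the members. The counts of Damage-seq, of the strand ratio and of RNA-seq in kidney, liver and lung were 0 in every alternative, and most members had few reads there. The other 7 counts were all of XR-seq TS or NTS and left out 1 library: without each library in turn the number of members called higher on the XR-seq TS ranged from 0 to 1 and on the NTS from 0 to 2. Without kidney library 2, Ctrl was called on the TS (3.30, adjusted p = 0.000579 by edgeR). Cela2a was called lower on the TS with DESeq2 (-1.87), without kidney library 1 (-1.60) and without kidney library 2 (-2.08), and its strand difference with DESeq2 (-1.77). Leaving out 1 library changed the sign of some uncalled log2 differences: on the TS they ranged from -0.40 to 0.15 for Cela1 (positive without kidney 1, liver 2, lung 1 or spleen 1), from -3.11 (without spleen 2) to 4.28 for Clps, and from -0.10 to 2.03 for Cpb1 and from -1.05 to 1.00 for Ctrb1 (both lowest without spleen 1), and in liver RNA-seq from -0.18 (without cisplatin 2) to 0.82 for Cela1. The cause was not tested.

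With a pseudocount of 1 CPM the spleen log2 ratios of the members ranged from 4.47 (Cela1) to 8.61 (Ctrb1), and the largest moves were those of Clps (6.85 in place of 10.16) and Try5 (6.71 in place of 10.02). Differences between same-numbered libraries correlated across pairs of groups from -0.34 to 0.59 in RNA-seq and from -0.08 to 0.06 in XR-seq TS, so the numbers were taken as names only. In the fits with the replicate number as a block, 10 members had a spleen log2 ratio of 1 or more, 0 were called on the XR-seq TS and 1 on the NTS, and no call of a member changed. Over all genes, calls in either direction ranged over the alternatives from 3733 to 7520 (5534 reported) for XR-seq TS, 925 to 4949 (2340) for NTS, 0 to 3281 (1240) for the strand ratio, 36 to 374 (285) and 0 to 26 (10) for Damage-seq TS and NTS, 64 to 1682 (454), 0 to 1831 (420) and 0 to 733 (57) for kidney, liver and lung RNA-seq, and 242 to 827 (728) for spleen log2 ratios of 1 or more. Members with under about 20 reads per library are limited by depth.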
